A study of Mus musculus with 44 samples.

Results

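The importins, exportins and nucleoporins are the genes of the nuclear transport machinery, and they were taken here as every row of the RNA-seq table whose name begins with Kpna, Kpnb, Ipo and a digit, Xpo, Tnpo, or Nup followed by a digit or l, pseudogene rows left out. The rule found 46 genes among the 35269 probes. All 46 are annotated as protein-coding in GENCODE, and their coordinates in the table were the same as in that annotation (GRCm38). They were sorted by role into 6 importin α genes, 11 genes of the importin β family (transportins included), 6 exportins and 23 nucleoporins.

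Single-embryo RNA-seq covered 44 two-cell embryos of C57Bl/6 mice from natural matings, 6 litters in all. Control females mated with Dppa2/4+/+ males gave 14 Dppa2/4+/+ embryos (litters of 10 and 4). Dppa2/4m− females carry a conditional allele from which a stretch that takes in exons of both Dppa4 and Dppa2 is deleted in growing oocytes by Zp3-Cre, so that all embryos of the other 3 groups lack maternal Dppa2 and Dppa4. Mated with Dppa2/4+/+ males they gave 15 Dppa2/4+/− embryos (litters of 7 and 8), called here +/− (+/+ sire). Mated with Dppa2/4+/− males they gave 5 Dppa2/4+/− embryos (4 and 1), called here +/− (+/− sire), and 10 Dppa2/4−/− embryos (3 and 7) from the same 2 litters, told apart by the authors from their Dppa2 and Dppa4 transcripts. Every other litter belonged to a single group. Any comparison with Dppa2/4+/+ embryos is therefore also one between litters, with only 2 litters on each side, and litter cannot be a fixed term in it.

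Traffic through the nuclear pore is carried by soluble receptors. Importin α proteins read the classical nuclear localisation signal and are themselves carried by importin β, the other members of the importin β family bind their own cargoes, and exportins take proteins or RNA out of the nucleus, all of them steered by the small GTPase Ran. The pore itself is built from nucleoporins: the Y complex and the inner ring form the scaffold, nucleoporins rich in phenylalanine-glycine (FG) repeats fill the channel, and others form the cytoplasmic filaments and the nuclear basket. In the mouse embryo, maternal and newly made transcripts overlap at the two-cell stage, when the zygotic genome is activated.

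Each value is the log2 RPM of 1 embryo, its mapped reads per gene scaled to a common library size, and total reads per embryo ranged from 247667 to 3163026. The +/− (+/+ sire) embryos were the shallowest group, with a median of 528166 reads against 1770009 in Dppa2/4+/+ embryos. RPM is a share of an embryo's reads, so fewer transcripts of a gene and more RNA of other genes cannot be told apart. In their medians the knocked-out genes followed the labels: Dppa2 was 336 RPM in Dppa2/4+/+ embryos, 68.7 and 68.9 RPM in the +/− groups with a +/+ and a +/− sire, and 0 RPM in Dppa2/4−/− embryos, 7 of which had no read. Not every embryo did: Dppa2 reached 345 RPM in a +/− (+/+ sire) embryo of litter 1 and 472 RPM in +/− (+/− sire) embryo 5, the only one of its group from litter 2, both within the Dppa2/4+/+ range (204 to 678). Dppa4 reached 164 RPM in the former litter, within its Dppa2/4+/+ range (80.2 to 356), and was 54.5 RPM in embryo 5, below it. Without embryo 5, 0 members were called in either comparison that uses it. For the offspring of Dppa2/4+/− sires this is no independent check, since their genotype was assigned from these transcripts. Of the 9 two-cell markers in the table, all had a median above 0, whereas all listed markers of cumulus cells, blood, sperm and blastocyst lineages had a median of 0 RPM. The blastocyst lineage markers summed to 7.70 to 61.9 RPM in the second Dppa2/4+/+ litter and to at most 11.1 RPM in all others. Ovgp1, the oviductal glycoprotein gene, stood apart. All 4 embryos of the second Dppa2/4+/+ litter held between 48.4 and 1498 RPM of it, against at most 61.4 RPM in the first Dppa2/4+/+ litter and at most 1.92, 8.16 and 0.41 RPM in the +/− (+/+ sire), +/− (+/− sire) and Dppa2/4−/− embryos, 9 of the 10 last having no read. Summed, the 6 oviduct markers reached 137 to 1670 RPM in that litter and 17.7 to 178 RPM in all others, and 5 of the 6 had a median of 0 RPM over all embryos, the exception being Epcam, read in all 44. Dppa2/4+/+ embryo 11 held the most Ovgp1. Over 6919 well-covered genes this embryo also had the lowest median correlation with the other embryos, at 0.537 against a median of 0.722, and the main results that rest on it are given with and without it. Next came Dppa2/4−/− embryo 8 (0.592) and +/− (+/+ sire) embryo 14 (0.625), and counts of calls were repeated without them.

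Transcripts of the nuclear transport genes were abundant. A mean of at least 3 log2 RPM was reached by 42 of the 46 members (91.3%), against 19.6% of all probes, and 37 members (80.4%) had a read in every embryo, against 12.3% of all probes. Summed, the 46 genes took a median of 6183 RPM in Dppa2/4+/+ embryos (3070 to 7298, n = 14). The sums were 5223 RPM (4048 to 5760, n = 15) and 5859 RPM (5020 to 6358, n = 5) in the +/− groups with a +/+ and a +/− sire, and 5846 RPM (4641 to 6518, n = 10) in Dppa2/4−/− embryos. The lowest sum was that of Dppa2/4+/+ embryo 11. Without it the Dppa2/4+/+ median was 6198 RPM (5350 to 7298), and the ranges of all 4 groups overlapped either way.

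To compare genes with one another, RPM were divided by the length of each gene's merged exons (GENCODE), and all levels in the next 3 paragraphs are RPM per kb in the 14 Dppa2/4+/+ embryos. Libraries primed from the poly(A) tail can favour 3′ ends, so these levels are approximate. Kpna2, an importin α, ranked highest with a median of 185 (28.7 to 262). Xpo1, the main exporter of proteins with a leucine-rich export signal, followed with 133 (20.1 to 220), and Kpna3 with 99.3 (50.9 to 166). The inner ring gene Nup35 had 64.4 (10.9 to 129) and Kpna1 51.0 (38.1 to 80.2). Embryo 11 was the lowest of the 14 for 21 of the 46 genes. Without it Kpna2 had 188 (158 to 262), Xpo1 135 (59.9 to 220) and Nup35 66.0 (28.2 to 129). The order of Kpna2, Xpo1 and Kpna3 is not separated by their ranges with or without it.

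**Figure D1:**
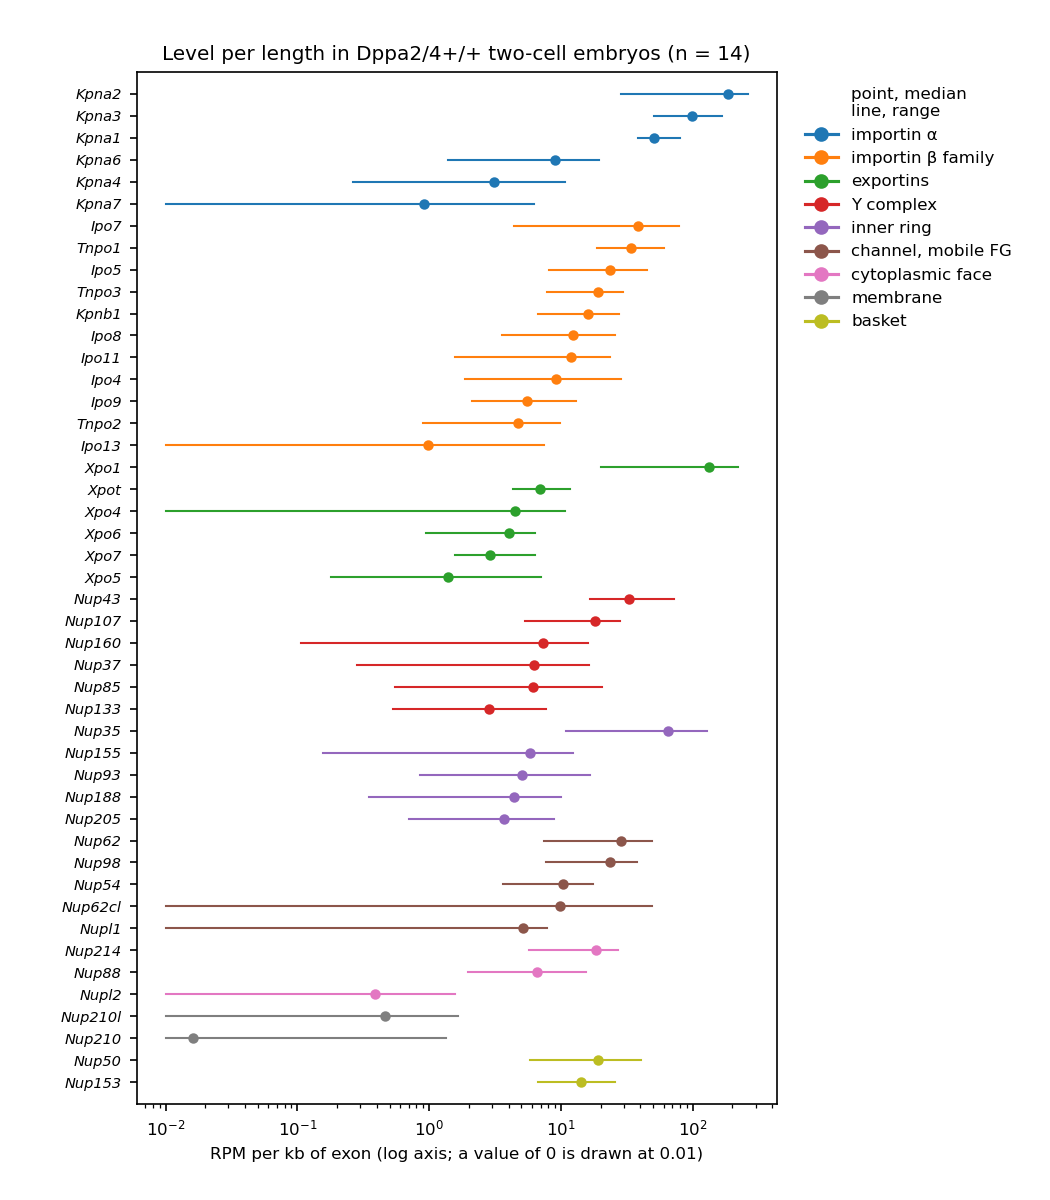
Level of each of the 46 genes in the 14 Dppa2/4+/+ embryos as RPM per kb of merged exon on a log axis, with the median as a point and the range over embryos as a line, sorted by role (colour) and then by median. Kpna2 (median 185), Xpo1 (133) and Kpna3 (99.3) lie furthest to the right, and Nup210 (0.016) furthest to the left.

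Within the importin β family Ipo7 (38.4) and the transportin Tnpo1 (33.7) led, and Kpnb1, importin β itself, had 16.0 (6.69 to 27.6). The median of Kpnb1 was therefore below those of the adaptors Kpna2, Kpna3 and Kpna1, and its range did not reach theirs. The range of Kpnb1 overlapped those of Ipo5 (23.6), Tnpo3 (19.0), Ipo8 (12.4) and Ipo11 (11.9). Ipo13 was the lowest of the family, at 0.988. Among exportins, Xpo1 was far above the rest: the tRNA exporter Xpot had 6.97, Xpo4 4.51, Xpo6 4.05, Xpo7 2.90 and the pre-miRNA exporter Xpo5 1.38, and none of these 5 had a highest value above the lowest of Xpo1.

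The scaffold subunits, which occur together in the pore, had unequal transcript levels. In the Y complex the medians ran from 33.1 for Nup43 and 18.1 for Nup107 to 7.31 for Nup160, 6.20 for Nup37, 6.15 for Nup85 and 2.85 for Nup133. In the inner ring Nup35 stood at 64.4, whereas Nup155, Nup93, Nup188 and Nup205 lay between 3.71 and 5.82. Of the channel and mobile FG genes, Nup62 (28.5) and Nup98 (23.7) were highest. Nup214 of the cytoplasmic face had 18.3, and the basket genes Nup50 and Nup153 had 19.1 and 14.1. The membrane nucleoporin Nup210 was close to absent (0.016, without a read in 27 of 44 embryos), as was its paralogue Nup210l (0.466) and the cytoplasmic face gene Nupl2 (0.387, without a read in 17). For Ipo4 and Nupl1, 55.3% and 48.8% of the exonic bases are shared with the overlapping same-strand genes Gm49378 and Gm49336, so their levels are uncertain.

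The importin α genes could be compared as shares of their summed level per kb in each embryo. Kpna2 made up a median of 51.8% in Dppa2/4+/+ embryos (14.2 to 67.0), Kpna3 29.1% (15.9 to 55.4) and Kpna1 15.5% (10.4 to 25.1). Kpna6 had 2.32%, Kpna4 0.972% and Kpna7, the importin α of oocytes and early embryos, 0.231%. Without embryo 11 the shares were 51.8% for Kpna2 (41.4 to 67.0), 27.6% for Kpna3 (15.9 to 40.3) and 15.5% for Kpna1 (10.4 to 21.1), and that of Kpna7 was 0.189%. The shares shifted between litters of the same group. In +/− (+/+ sire) embryos the median share of Kpna2 was 55.8% in litter 1 and 31.4% in litter 2, and that of Kpna3 25.2% and 43.9%. In Dppa2/4−/− embryos Kpna2 had 49.3% in litter 1 and 68.5% in litter 2, and Kpna3 37.6% and 17.8%. These shares are descriptions, without a test.

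Differences between groups were tested with limma on log2 RPM raised to a common floor of 1.86, the highest value that stands for 0 reads in any embryo, over the 16412 genes whose mean over all embryos was 0 log2 RPM or more. All 46 members passed this filter. A gene was called at a Benjamini-Hochberg adjusted p below 0.05. The p-values measure the spread between embryos, which share litters, and the 3 comparisons with Dppa2/4+/+ embryos share their controls.

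The first question was whether embryos without maternal and zygotic Dppa2/4 differed from Dppa2/4+/+ embryos. None of the 46 genes was called, and 0.0183% of all genes were (3 of 16412, limma). With voom on recovered reads the count of members was 0 as well. At an unadjusted p below 0.05 there were 6 members and 2379 genes (14.5%). The median difference of the members was 0.30 on the log2 scale, with 30 of 46 above 0, beside 0.09 for all genes tested. It was 0.12 without Dppa2/4+/+ embryo 11 and ran from 0.09 to 0.42 when 1 of the 4 litters was left out. When each embryo was centred on its median, the median of the members was -0.01. The 95% interval of a member's difference, without adjustment for the number of genes, extended by a median of 0.75 to either side (0.31 to 1.34). The 6 members past the unadjusted threshold were not called, so differences larger than these widths could be missed as well.

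**Figure D2:**
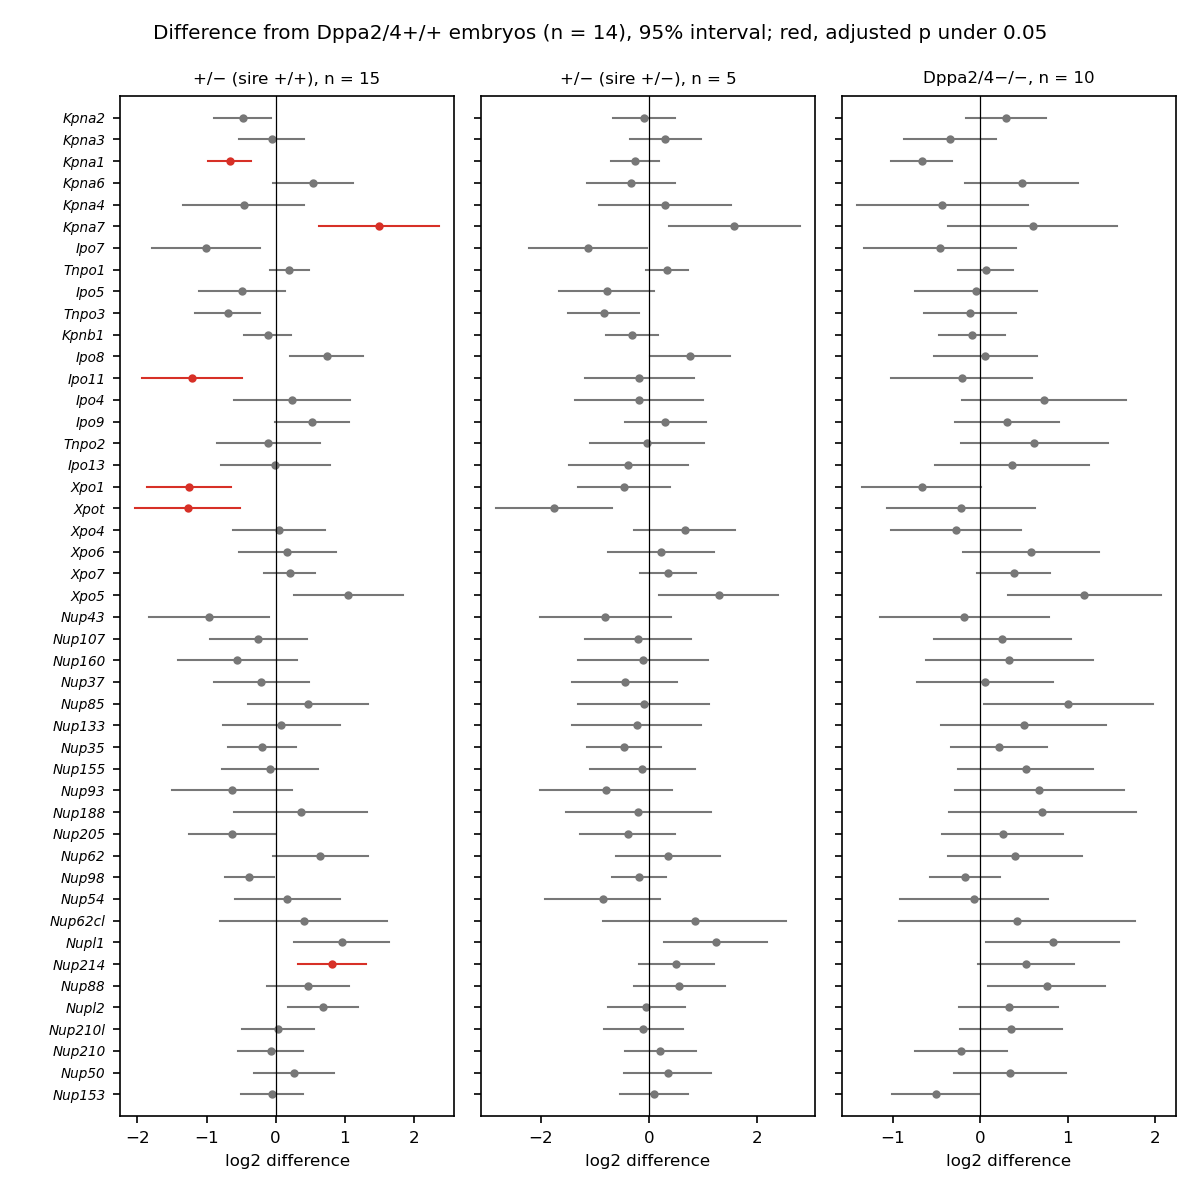
Difference of each gene from Dppa2/4+/+ embryos (log2, after the common floor) with its 95% interval, in +/− (+/+ sire), +/− (+/− sire) and Dppa2/4−/− embryos, with genes ordered by role. The 6 red genes, all in the first panel, are past the adjusted threshold, and in the other panels 0 genes are.

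The smallest adjusted p in Dppa2/4−/− embryos belonged to Kpna1, which carries classical import signals into the nucleus. The lowest, median and highest values were 8.34, 8.76 and 9.41 log2 RPM in Dppa2/4+/+ embryos and 7.43, 7.98 and 8.88 in Dppa2/4−/− embryos. In 9 of 10 Dppa2/4−/− embryos Kpna1 was below the Dppa2/4+/+ mean, but the groups overlapped. The difference was -0.67 ± 0.17 (SE; limma adjusted p = 0.0892).

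The other genes at the low end were Xpo1 (-0.67 ± 0.34, adjusted p = 0.349) and the basket gene Nup153 (-0.51 ± 0.25, adjusted p = 0.336). Nup153 ran from 5.50 through a median of 6.07 to 6.40 log2 RPM in Dppa2/4−/− embryos and from 5.55 through 6.63 to 7.50 in Dppa2/4+/+ embryos. At the high end were Xpo5 (1.19 ± 0.43, adjusted p = 0.200), the Y complex gene Nup85 (2.01-fold, adjusted p = 0.327) and Nupl1 (0.83 ± 0.38, adjusted p = 0.303), an FG nucleoporin of the central channel. Xpo5 had 0.32, 3.17 and 5.60 log2 RPM (lowest, median, highest) in Dppa2/4+/+ embryos and 3.35, 4.74 and 5.62 in Dppa2/4−/− embryos. Nup85 had 0.91, 4.37 and 6.12 against 2.52, 5.51 and 7.13, and Nupl1 had -0.45, 4.21 and 4.83 against 3.58, 4.24 and 5.46. None of these 5 passed the threshold, and all ranges overlapped. Embryo 11 held the lowest Dppa2/4+/+ value of Xpo1, Nup153 and Nup85. Without it their differences were -0.86, -0.59 and 0.82, with adjusted p-values of 0.219, 0.289 and 0.438.

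The comparison that holds litter constant set Dppa2/4−/− embryos against their +/− littermates from Dppa2/4+/− sires, with litter as a term. Again 0 members were called, beside 0.0122% of all genes (limma). The 2 called genes were Dppa2 and Dppa4, from which these genotypes had been assigned. Litter 2 holds only 1 of the +/− embryos. At an unadjusted p below 0.05 there were 2 members, the inner ring gene Nup93 (1.45 ± 0.49 higher in Dppa2/4−/− embryos, adjusted p = 0.898) and Nup153 (-0.55 ± 0.21, adjusted p = 0.898), beside 715 genes. For the best-measured members the interval was narrow. The 95% interval was -0.37 to 0.35 for Tnpo1, -0.16 to 0.50 for Kpna2 and -0.30 to 0.39 for Ipo8. Across all 46 the interval extended by 0.31 to 1.98 to either side.

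The +/− (+/− sire) embryos did not differ detectably from Dppa2/4+/+ embryos in any member (0 of 46, beside 0.0305% of all genes). At an unadjusted p below 0.05 there were 7 members and 1399 genes. The lowest difference was that of Xpot (-1.76 ± 0.53, adjusted p = 0.363), which lay at 4.03, -0.15, 3.98, 2.67 and 5.62 log2 RPM in embryos 1 to 5, against 4.71 to 6.14 in Dppa2/4+/+ embryos. Embryo 2 was the lowest by far, and 4 of the 5 lay below the Dppa2/4+/+ mean. Kpna7 had 4.08, 3.44, 4.91, 4.72 and 3.38 log2 RPM and was above the Dppa2/4+/+ mean in all 5 (1.58 ± 0.60, adjusted p = 0.434).

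The +/− (+/+ sire) embryos differed from Dppa2/4+/+ embryos in 6 of 46 members, beside 4.54% of all genes tested (745 of 16412). With litter as a random effect 0 members and 0 genes were called. Without the common floor the members' share was below that of all genes (21.7% beside 24.7%), as with voom (15.2% beside 16.3%). Among genes with a mean of at least 3 log2 RPM it was above (9 of 42 members, 21.4%, beside 15.1% of 6919 genes). Of the 6, 2 rose (Kpna7 and Nup214), where 2.49% of all genes were higher, and 4 fell (Xpo1, Kpna1, Xpot and Ipo11), where 2.05% were lower. When each embryo was centred on its median the balance over all genes turned, from 409 higher and 336 lower to 397 and 595, and that of the members became 2 higher and 7 lower, the 6 among them. They were spread over roles: importin α with 1 up and 1 down of 6, exportins with 2 down of 6, the importin β family with 1 down of 11 and the cytoplasmic face with 1 up of 3. Of the 46 members, no scaffold, channel, membrane or basket gene was called.

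Xpo1 fell from a median of 9.89 log2 RPM in Dppa2/4+/+ embryos (7.17 to 10.63) to 8.40 (6.71 to 9.83). Of the 15 +/− (+/+ sire) embryos, 14 were below the Dppa2/4+/+ mean, and the ranges overlapped. The difference of -1.25 ± 0.30 (SE; limma adjusted p = 0.0120) corresponds to 0.421-fold. Kpna1 fell from 8.76 (8.34 to 9.41) to 8.23 (7.38 to 9.03), again below the Dppa2/4+/+ mean in 14 of 15 (-0.67 ± 0.16, adjusted p = 0.00990). Xpot, which exports tRNA, fell from 5.39 (4.71 to 6.14) to 4.38 (0.93 to 6.05), and 2 embryos had no read (-1.27 ± 0.38, adjusted p = 0.0411). The importin β family gene Ipo11 had medians of 6.55 and 5.06 (-1.21 ± 0.36, adjusted p = 0.0399).

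Nup214, on the cytoplasmic filaments where export complexes are released, rose from a median of 7.46 log2 RPM (5.79 to 8.03) to 8.34 (7.22 to 8.94), a difference of 0.82 ± 0.24 (adjusted p = 0.0409). Kpna7 rose from 1.50 (-0.60 to 4.30), with 3 of 14 Dppa2/4+/+ embryos without a read, to 3.77 (1.15 to 6.33). After the common floor it was 2.83-fold higher (95% interval of the log2 difference 0.63 to 2.37, adjusted p = 0.0342).

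**Figure D3:**
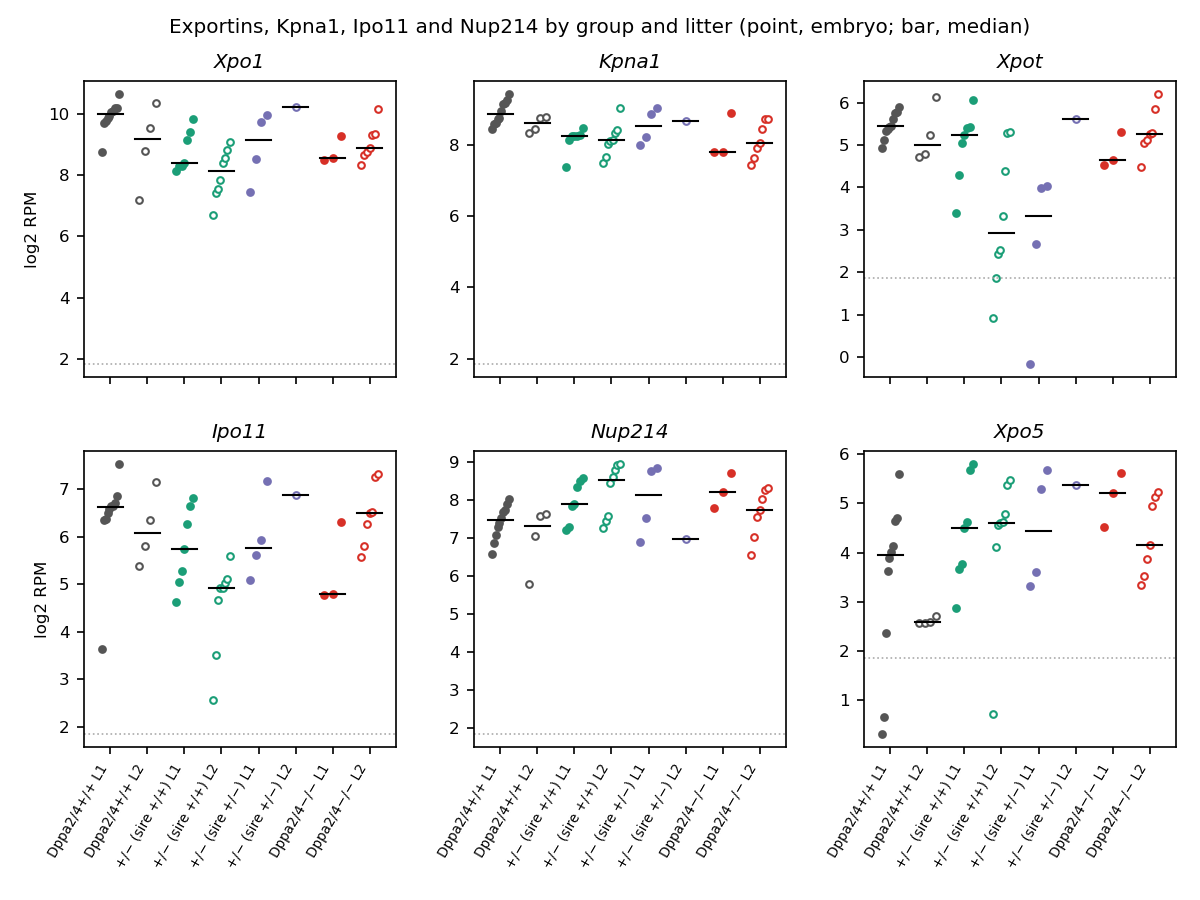
Log2 RPM of Xpo1, Kpna1, Xpot, Ipo11, Nup214 and Xpo5 in each of the 44 embryos, by group and litter (L1 filled, L2 open), with the median of each litter as a bar and the common floor as a dotted line. For Xpo1 the +/− (+/+ sire) embryos have a median of 8.40 and the Dppa2/4+/+ embryos one of 9.89, and for Xpot the second +/− (+/+ sire) litter reaches 0.93.

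These 6 calls depended on litters and on single libraries. Without litter 2 of the +/− (+/+ sire) embryos 0 of 46 members were called, beside 0.0366% of all genes, and without litter 1 of the Dppa2/4+/+ embryos 0 as well, beside 1.74%. Without litter 1 of the +/− (+/+ sire) embryos there were 15 (4 higher, 11 lower), beside 14.3% of all genes. Without litter 2 of the Dppa2/4+/+ embryos, the litter with oviduct transcripts, 8 were called (2 higher, 6 lower), beside 5.01%, of which 3 were among the 6. Without Dppa2/4+/+ embryo 11, 7 members were called, beside 5.29% of all genes, of which 3 (Xpo1, Kpna1 and Kpna7) were among the 6. Xpo1 then differed by -1.44 (adjusted p = 0.00198). Ipo11 (-1.14), Xpot (-1.21) and Nup214 (0.70) kept most of their differences, with adjusted p-values of 0.0555, 0.0553 and 0.0666, while Kpna2 (-0.67), Ipo7 (-1.24), Tnpo3 (-0.79) and Nup98 (-0.50) passed. With litter as a random effect 0 members and 0 genes were called, and Xpo1 and Kpna1 had differences of -1.14 and -0.63 with adjusted p-values of 0.353 and 0.329. Without +/− (+/+ sire) embryo 14, 2 members were called, Xpo1 (-1.18) and Kpna1 (-0.66), beside 2.92% of all genes.

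The other genes of the pathway were followed in a list of 28, among them Ran, its exchange factor Rcc1, its GTPase-activating protein Rangap1 and the mRNA exporter Nxf1. In +/− (+/+ sire) embryos, where 2.49% of all genes were higher and 2.05% lower, 1 of 28 rose, Sec13 of the Y complex (1.77 ± 0.44), and 2 fell, Ranbp2 of the cytoplasmic filaments (-1.15 ± 0.30) and the basket gene Tpr (-1.06 ± 0.19), with limma adjusted p-values from 0.00151 to 0.0182. In the +/− (+/− sire) embryos, the Dppa2/4−/− embryos and the comparison within litters 0 of 28 were called.

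Litters of the same group were compared next, which gives the spread between litters of 1 genotype. Each is 1 litter against 1 litter, and the labels tie no litter of one cross to a litter of another, apart from the 2 litters that hold both +/− (+/− sire) and Dppa2/4−/− embryos. In the +/− (+/+ sire) embryos litter 2 (n = 8) differed from litter 1 (n = 7) in 12 of 46 members (26.1%), beside 16.6% of all genes. Among genes with a mean of at least 3 log2 RPM the members' share was near that of all genes, 15 of 42 members (35.7%) beside 35.5% of 6919 genes. There were 2 members higher, where 4.96% of all genes were, and 10 lower, where 11.6% were. Dppa2 and Dppa4 themselves were lower in litter 2, with medians of 145 RPM in litter 1 and 48.6 RPM in litter 2 for Dppa2 (-1.56 ± 0.29, adjusted p = 0.000178) and 73.6 and 26.3 RPM for Dppa4 (-1.79 ± 0.30, adjusted p = 7.34e-05), and their part in the members' differences was not tested. When each embryo was centred on its median the split changed to 7 higher and 4 lower (1265 and 1264 among all genes), and 6 of these 11 were among the 12. Ipo8 and Kpna7 stayed higher, and Nup43, Nup107, Ipo5 and Tnpo3 stayed lower.

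**Figure D4:**
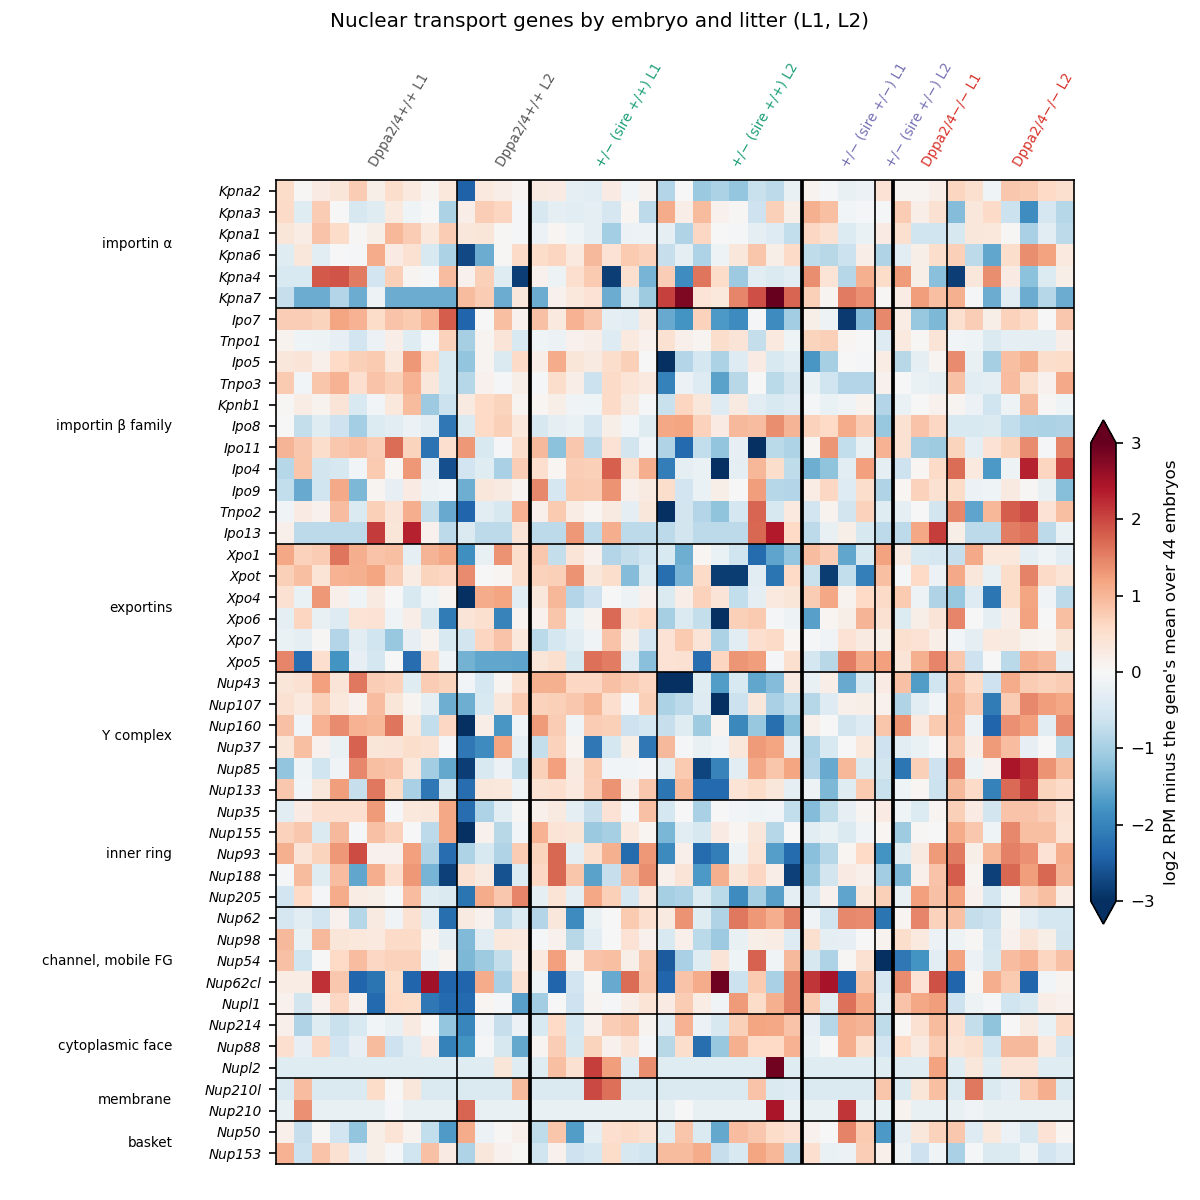
Log2 RPM of the 46 genes (rows, by role) in 44 embryos (columns, by group and litter), after the common floor and minus each gene's mean over all embryos, from blue (3 below) to red (3 above). The rows of Ipo8 and Kpna7 are red in the second +/− (+/+ sire) litter and the first litter of Dppa2/4+/− sires, and the first column of the second Dppa2/4+/+ litter, embryo 11, is blue in many rows.

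Ipo8, an importin β family gene, had the members' smallest adjusted p between the +/− (+/+ sire) litters and also between the Dppa2/4−/− litters. It did not have it between the Dppa2/4+/+ litters. In +/− (+/+ sire) embryos its lowest, median and highest values were 7.47, 7.69 and 8.14 log2 RPM in litter 1 and 8.20, 8.96 and 9.35 in litter 2. The ranges did not overlap, and the difference was 1.19 ± 0.21 (SE; limma adjusted p = 0.000128), or 2.29-fold. In the litters of Dppa2/4+/− sires both genotypes sat at the level of their litter. The 3 Dppa2/4−/− embryos of litter 1 had 8.42, 8.82 and 8.57 and the 4 +/− embryos 8.65, 8.56, 9.09 and 8.72. In litter 2 the 7 Dppa2/4−/− embryos lay between 7.01 and 7.54 and the +/− embryo at 6.83.

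Between the Dppa2/4−/− litters Ipo8 differed by -1.33 ± 0.28 (litter 2 against litter 1, adjusted p = 0.0113), without overlap. The second Dppa2/4+/+ litter had 7.54, 8.56, 8.68 and 8.29, above the mean of the first, where the range was 5.82 to 7.95 (0.91 ± 0.24, adjusted p = 0.0283). Without embryo 11 this difference was 1.16 (adjusted p = 0.00842), but the call was lost in 5 of 12 other settings: without embryo 12 or 13 (adjusted p = 0.0896 and 0.0939), without the common floor (0.057), with a filter at a mean of 3 (0.051) and at thinned depth (0.0942). Ipo8 was thus called between the litters of all 3 groups, whereas against Dppa2/4+/+ embryos its difference was 0.74 ± 0.26 (adjusted p = 0.0941), 0.76 ± 0.37 (adjusted p = 0.572) and 0.06 ± 0.29 (adjusted p = 0.981) in +/− (+/+ sire), +/− (+/− sire) and Dppa2/4−/− embryos.

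Kpna7 had the same order in +/− (+/+ sire) embryos, with 1.15, 2.91 and 3.79 log2 RPM in litter 1 and 3.67, 5.18 and 6.33 in litter 2, a difference of 2.23 ± 0.44 (adjusted p = 0.000431) or 4.68-fold. All 8 embryos of litter 2 were above the mean of litter 1. In the other groups it was not called between litters: the difference was 1.36 ± 0.50 in Dppa2/4+/+ embryos (adjusted p = 0.138) and -1.45 ± 0.58 in Dppa2/4−/− embryos (adjusted p = 0.180). Summed markers of the two-cell embryo differed between the litters of 2 groups as well. The median over the 9 genes in the table was 209 RPM (180 to 453) in litter 1 and 901 RPM (429 to 1460) in litter 2 of +/− (+/+ sire) embryos, and 474 RPM (332 to 569) and 189 RPM (163 to 259) in litters 1 and 2 of Dppa2/4−/− embryos. In the Dppa2/4+/+ litters, between which Ipo8 was called, it was 256 RPM (153 to 312) and 311 RPM (141 to 367), with overlap. The 10 oocyte markers summed to medians of 2360 and 3680 RPM in litters 1 and 2 of +/− (+/+ sire) embryos, 2650 and 2320 RPM in those of Dppa2/4−/− embryos, and 1940 and 2210 RPM in those of Dppa2/4+/+ embryos. The part of either list in the differences between litters was not tested.

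**Figure D5:**
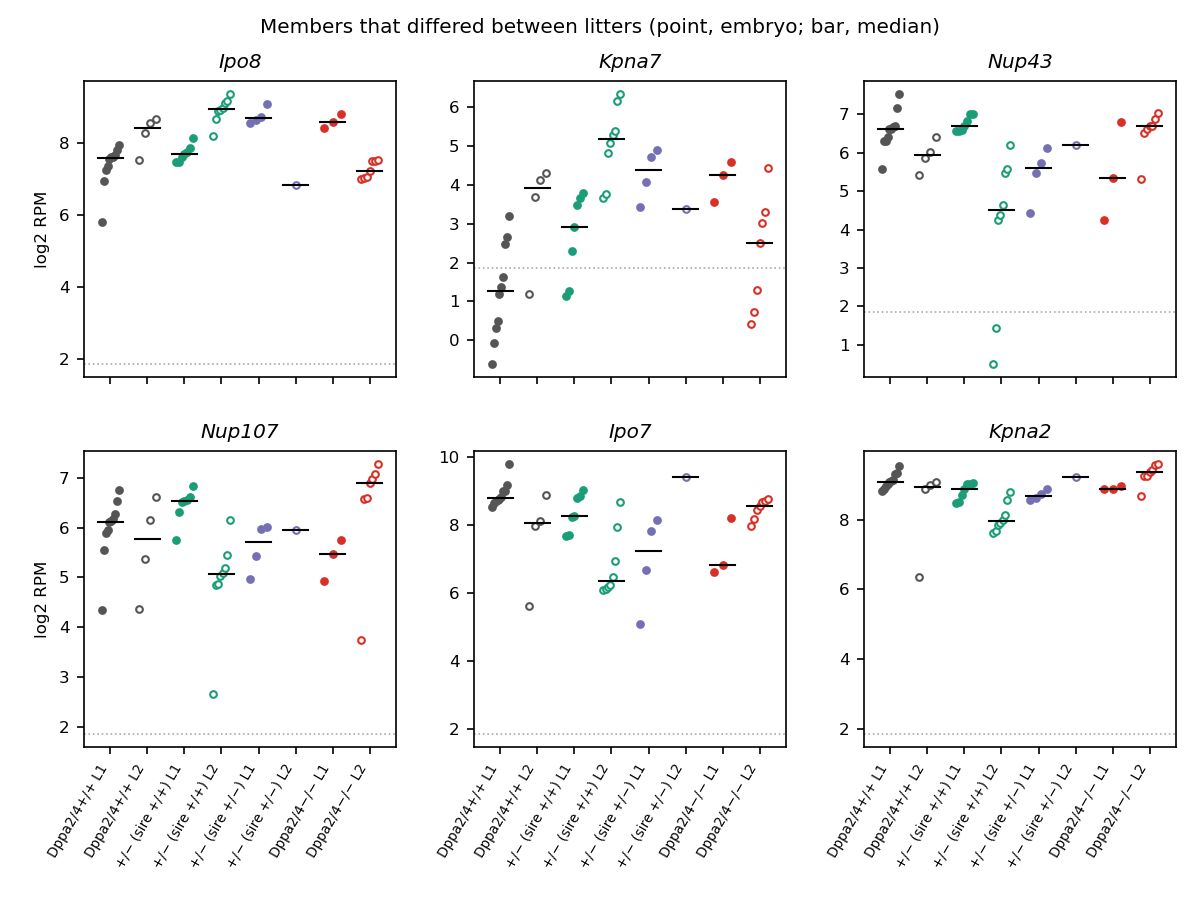
Log2 RPM of Ipo8, Kpna7, Nup43, Nup107, Ipo7 and Kpna2 in each of the 44 embryos, by group and litter (L1 filled, L2 open), with the median of each litter as a bar and the common floor as a dotted line. For Ipo8 the second +/− (+/+ sire) litter (8.20 to 9.35) lies above the first (7.47 to 8.14), and the second Dppa2/4−/− litter (7.01 to 7.54) below the first (8.42 to 8.82).

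Among the 10 genes that were lower in litter 2 of +/− (+/+ sire) embryos were 3 of the 6 Y complex genes, while Nup37 of the same complex had a positive difference (1.04 ± 0.43, adjusted p = 0.0946) and was called higher after centring (1.35, adjusted p = 0.0319). Nup43 had 6.56, 6.70 and 7.01 log2 RPM in litter 1 and 0.51, 4.51 and 6.21 in litter 2, again without overlap (-2.47 ± 0.45, adjusted p = 0.000189). Nup107 had 5.76, 6.54 and 6.83 against 2.67, 5.06 and 6.16 (-1.54 ± 0.42, adjusted p = 0.00955), and Nup160 differed by -1.41 ± 0.49 (adjusted p = 0.0434). Of the inner ring, Nup205 (-1.21 ± 0.40) and Nup93 (-1.61 ± 0.55) were lower. Of 9 other settings, 6 lost the call of Nup160, 6 that of Nup93 and 5 that of Nup205, whereas all kept that of Nup43 and 8 that of Nup107.

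The transport receptors lower in that litter were Ipo7, Ipo5, Tnpo3, Xpot and Kpna2. Ipo7 had 7.68, 8.27 and 9.03 in litter 1 and 6.10, 6.36 and 8.68 in litter 2 (-1.53 ± 0.41, adjusted p = 0.00772). Tnpo3, which imports splicing factors, differed by -0.98 ± 0.27 (adjusted p = 0.00972) and Ipo5 by -1.28 ± 0.37 (adjusted p = 0.0147), with all 8 embryos of litter 2 below the mean of litter 1 for both. Kpna2 had 8.47, 8.89 and 9.06 against 7.63, 7.96 and 8.79 (-0.75 ± 0.24, adjusted p = 0.0275), and Xpot differed by -1.61 ± 0.44 (adjusted p = 0.0101). Of the 28 other pathway genes 1 was higher (Ranbp9), where 4.96% of all genes were, and 6 lower (Snupn, Nxf1, Rangap1, Rcc1, Ranbp2 and Tpr), where 11.6% were.

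In Dppa2/4−/− embryos litter 2 (n = 7) differed from litter 1 (n = 3) in 2 members, beside 1.79% of all genes: Ipo8, above, and the channel gene Nup54. Among genes with a mean of at least 3 log2 RPM the count was 2 of 42 members (4.76%), beside 4.91% of 6919 genes. Of all genes 142 (0.865%) were higher and 152 (0.926%) lower, or 104 and 189 when each embryo was centred on its median, which left the 2 members called. Nup54 had 2.80, 3.16 and 4.64 log2 RPM in litter 1 and 4.48, 5.82 and 6.16 (lowest, median, highest) in litter 2. All 7 embryos of litter 2 were above the litter 1 mean (2.00 ± 0.53, adjusted p = 0.0423). Without embryo 2 of litter 1, 0 members were called, beside 1.07% of all genes, and without embryo 1 only Ipo8, beside 2.06%. Without embryo 8 of litter 2 Nup54 had an adjusted p of 0.0805 (1.92), and Ipo8 alone was called, beside 0.762% of all genes.

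In Dppa2/4+/+ embryos litter 2 (n = 4) differed from litter 1 (n = 10) in 3 members, beside 2.55% of all genes. Ipo8 was higher, where 2.13% of all genes were (350), and Nup35 and Nup160 were lower, where 0.42% were (69). Nup35 had 5.19, 6.57, 7.16 and 7.53 log2 RPM in embryos 11 to 14, against 7.17 to 8.76 in litter 1 (-1.32 ± 0.32, adjusted p = 0.0133). Nup160 had -0.09, 5.73, 3.78 and 5.41 against 4.78 to 7.13 (-2.04 ± 0.56, adjusted p = 0.0381). Embryo 11 was the lowest for both. Without it the differences were -0.85 (adjusted p = 0.248) and -1.26 (adjusted p = 0.474), and only Ipo8 remained past the threshold, beside 1.35% of all genes. Without embryo 13 or embryo 14 the count was 6 and 5, beside 4.87% and 5.72% of all genes. Among genes with a mean of at least 3 log2 RPM 3 of 42 members were called (7.14%), beside 2.44% of 6919 genes.

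The differences between litters ran in opposite directions in the +/− (+/+ sire) and Dppa2/4−/− groups, which share no litters. Over the 46 genes, 38 had opposite signs in the +/− (+/+ sire) and Dppa2/4−/− litters, and Pearson's r was -0.695 and Spearman's rho -0.701. Over 6919 well-covered genes r was -0.759, near the value of the members. The Dppa2/4+/+ litters went with the +/− (+/+ sire) litters (r = 0.427, rho = 0.331, 15 of 46 with opposite signs) and against the Dppa2/4−/− litters (r = -0.468, rho = -0.425, 31 of 46). Of the 12 genes called in the +/− (+/+ sire) litters, 10 had the opposite sign in the Dppa2/4−/− litters and 1 in the Dppa2/4+/+ litters. The points are genes measured in the same libraries, so no p is given, and which litter is numbered 1 is arbitrary.

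RefSeq promoter sequences (GRCm38.p6, 300 bases around the transcript start) were at hand for 37 of the 46 members. They had a median GC content of 64.0% and 28 CpGs per 300 bases, against 55.3% and 11 over the 20097 genes of the table with a promoter. Searched on both strands, the CCAAT box (CCAAT) was found in 56.8% of member promoters and 38.4% of all, the GC box (GGGCGG) in 67.6% and 43.5%, an ETS core (CCGGAAG) in 16.2% and 11.2%, an NRF1 core (GCGCATGC) in 13.5% and 3.37%, and a TATA box (TATAAA) in 5.41% and 13.1%. Such matches describe letters and show no binding.

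Of the members called between the +/− (+/+ sire) litters, the promoters of the 2 higher genes and of 2 lower genes are shown. They run 5′ to 3′ on the strand of the gene, with matches to the 5 motifs in capitals. Ipo8 lies at chr6:148831418-148831717, reverse strand, Kpna7 at chr5:145009587-145009886, reverse strand, Nup107 at chr10:117792656-117792955, reverse strand, and Ipo7 at chr7:110018065-110018364, forward strand.
Ipo8: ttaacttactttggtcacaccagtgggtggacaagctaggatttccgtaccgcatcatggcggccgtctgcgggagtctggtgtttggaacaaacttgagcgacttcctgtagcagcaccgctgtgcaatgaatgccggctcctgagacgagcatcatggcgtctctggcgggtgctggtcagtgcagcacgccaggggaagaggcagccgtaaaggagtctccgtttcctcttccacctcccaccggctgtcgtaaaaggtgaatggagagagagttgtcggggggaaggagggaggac
Kpna7: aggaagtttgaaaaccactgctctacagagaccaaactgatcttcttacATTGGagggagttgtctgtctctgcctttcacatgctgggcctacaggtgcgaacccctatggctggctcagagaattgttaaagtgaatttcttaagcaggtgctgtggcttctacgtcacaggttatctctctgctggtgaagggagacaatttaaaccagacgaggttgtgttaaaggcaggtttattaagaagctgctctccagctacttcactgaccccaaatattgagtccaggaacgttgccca
Nup107: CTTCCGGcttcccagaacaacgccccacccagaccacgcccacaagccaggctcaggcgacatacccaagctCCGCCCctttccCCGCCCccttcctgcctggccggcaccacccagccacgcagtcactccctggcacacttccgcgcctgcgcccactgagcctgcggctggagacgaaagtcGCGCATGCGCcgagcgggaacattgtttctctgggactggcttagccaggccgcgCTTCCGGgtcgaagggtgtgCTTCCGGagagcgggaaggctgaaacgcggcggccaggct
Ipo7: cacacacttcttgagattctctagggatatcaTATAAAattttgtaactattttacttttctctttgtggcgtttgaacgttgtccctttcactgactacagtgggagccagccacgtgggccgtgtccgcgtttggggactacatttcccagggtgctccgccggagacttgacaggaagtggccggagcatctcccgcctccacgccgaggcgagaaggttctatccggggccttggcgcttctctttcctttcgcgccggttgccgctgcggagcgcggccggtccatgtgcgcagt

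The Kpna7 window had 4 CpGs and a GC content of 46.7%, with 1 CCAAT box. Its RefSeq transcript start lies inside the gene, 74394 bases from the gene start used in the table. The window is thus not at the start of the gene as counted. The Ipo8 window had 17 CpGs and 0 of the 5 motifs. That of Nup107 had 27 CpGs, 2 GC boxes, 3 ETS cores and 2 overlapping matches of the NRF1 core. The Ipo7 window had 24 CpGs and 1 TATA box match. Of the 10 lower genes 9 had a promoter in the table, and a GC box was found in 6 of them (66.7%), a CCAAT box in 3, an ETS core in 2, a TATA box in 2 and the NRF1 core in 1.

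The spread within litters differed between members as well. Among the 42 with a mean of at least 3 log2 RPM, the SD within litters had a median of 0.807 on the log2 scale, beside 0.913 for the 6919 genes of the table at that level. Tnpo1 (0.350), Ipo8 (0.407), Kpna1 (0.426) and Kpnb1 (0.430) varied least, and Nup62cl (1.66), Nup188 (1.33) and Kpna4 (1.20) most. Tnpo1 was not called in any of the 7 comparisons, and its group means were 8.58 ± 0.42 (SD, n = 14), 8.78 ± 0.33 (n = 15), 8.91 ± 0.47 (n = 5) and 8.64 ± 0.28 (n = 10) in Dppa2/4+/+, +/− (+/+ sire), +/− (+/− sire) and Dppa2/4−/− embryos. For Nup98, highest of the FG genes in RPM, they were 8.11 ± 0.59, 7.72 ± 0.45, 7.93 ± 0.31 and 7.93 ± 0.36. Nup50 of the basket had 6.32 ± 0.71, 6.58 ± 0.85, 6.66 ± 1.20 and 6.66 ± 0.45. Nup210l, the higher of the membrane genes, had medians of 1.41 (-1.66 to 3.24), 1.30 (0.44 to 4.28), 0.52 (-1.25 to 3.12) and 2.35 (0.30 to 3.88) log2 RPM. In all, 18 of the 46 genes (39.1%) were called in at least 1 of the 7 comparisons, beside 22.2% of all genes tested. These 2 shares are not matched for level. A mean of at least 3 log2 RPM was reached by 42 of the 46, against 6919 of the 16412 genes tested. The share over the 7 comparisons was not taken at that level.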

How the data were processed

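The authors trimmed the reads (Trim Galore 0.6.5, cutadapt 2.3), mapped them to GRCm38 with HISAT2 2.1.0, discarded alignments under a MAPQ of 20, and counted them unstranded over 35269 mRNA probes with SeqMonk. Deposited values are log2 RPM, in which a gene without reads holds the value of 0.9 read. From this step 99.9997% of values gave whole reads within 0.05. As the libraries hold no molecular identifiers, reads are not separate molecules and depth speaks for counting error alone. About 3 reads are needed to tell a gene from 0.

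Groups and litters were taken from the labels. The members and lists were chosen with earlier results of these data known. Values raised to a common floor were tested with limma 3.58.1 (R 4.3.3; lmFit, eBayes with trend) over 16412 genes, with Benjamini-Hochberg adjustment, in 7 comparisons. The methods read here name no test. Named in full were members past the threshold (up to the 12 with the smallest adjusted p), the highest member of each role, and the 3 highest and 3 lowest differences in Dppa2/4−/− embryos. Other genes are named where a count or comparison includes them. Alternatives covered the floor, filter, scaling, depth, weights, litter terms and leaving out litters or embryos. Leaving out Dppa2/4+/+ embryo 11 in the group comparisons and levels, and Dppa2/4−/− embryo 8 and +/− (+/+ sire) embryo 14 in counts of calls, was added after the data had been seen. Exon lengths came from GENCODE vM21. The test was tested on simulated data. An item withheld from the pathway list is not reported here.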

Additional observations from a re-analysis of the deposited data

Results flagged for a closer look

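Ipo8 in the +/− (+/− sire) embryos had 1 embryo far from the others. Embryo 5 stood at 6.83 log2 RPM (197 reads), and the other 4 lay between 8.56 and 9.09, so that the gap made up 0.765 of the range. Embryo 5 is the only one of this group from litter 2, in which the 7 Dppa2/4−/− embryos lay between 7.01 and 7.54. The +/− (+/− sire) and Dppa2/4−/− groups were examined for each of 21 named members, 42 sets in all, of which this was the 1 that passed, and chance alone passes about 1 in 20.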

How the results depend on the processing

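The count of called members in Dppa2/4−/− against Dppa2/4+/+ embryos, and against +/− littermates, was 0 under all 15 and 14 other settings, respectively, and without Dppa2/4−/− embryo 8. In +/− (+/+ sire) against Dppa2/4+/+ embryos the count of 6 became 10 without the common floor (24.7% of all genes), 3 without a filter (2.36%), 3 at thinned depth (3.30%), 0 with litter as a random effect, 0 over litter means and 2 without +/− (+/+ sire) embryo 14, and ran from 0 to 15 when 1 litter was left out. In +/− (+/− sire) embryos array weights gave 1 member, Xpot, beside 0.695% of all genes, and all other settings gave 0 members. Of the litter comparisons, the 3 calls in Dppa2/4+/+ embryos ran from 1 to 6 when 1 of the 4 embryos of litter 2 was left out, beside 1.35% to 5.72% of all genes. The 2 in Dppa2/4−/− embryos became 1 without the common floor (0.615% of all genes), with log2(RPM + 4) (2.0%) and at thinned depth (1.41%). They also became 1 with voom (0.957%) and without embryo 8 (0.762%). They ran from 0 to 2 when an embryo of litter 1 was left out, beside 1.07% to 2.06% of all genes. The 12 in the +/− (+/+ sire) litters ran from 8 to 15 over 9 settings, beside 9.95% to 35.5% of all genes. The causes were not tested, apart from the fewer embryos or litters that some alternatives use. No called member changed its direction. With mating number as a replicate block, 3 members were called in +/− (+/+ sire) embryos, beside 3.57% of all genes, and it changed no other count of members. The mating numbers were taken as not pairing samples across crosses, which the labels do not settle. The litter differences of 6919 genes correlated at 0.446 between Dppa2/4+/+ and +/− (+/+ sire) embryos. They correlated at -0.437 between Dppa2/4+/+ and Dppa2/4−/−, and at -0.759 between +/− (+/+ sire) and Dppa2/4−/− embryos. Whether equal numbers share a batch was not tested. Without the litter term in the comparison of littermates, 0 members were called. Low depth limits Nup210, Nup210l, Nupl2 and Ipo13, whose mean was below 3 log2 RPM.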
